A study of Mus musculus with 20 samples.

Results

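The genes described are the histone genes of the array, chosen by name: every gene whose name begins with Hist1h to Hist4h (38 replication-dependent genes) or with H1f, H2af or H3f (14 variant genes), 52 of 27376 gene names. They were measured in RNA of the extensor digitorum longus, a muscle of fast fibres in the hindlimb, from male C57Bl6 mice, with 20 one-colour arrays. Mice 8 weeks old received an empty rAAV6 vector (recombinant adeno-associated virus, serotype 6) in the left hindlimb. The right hindlimb received vectors for D832N HDAC4 and D861N HDAC5, mutant class IIa histone deacetylases called dnHDAC4/5 below, at 2.5e+10 vector genomes of each in 30 µL. After 4 weeks an intraperitoneal injection of Scriptaid, a hydroxamate inhibitor of histone deacetylases, or of its vehicle was given.

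The 4 groups of 5 arrays were named by vector and then injection: EV and ES are legs with the empty vector under vehicle and Scriptaid, and HV and HS the dnHDAC4/5 legs likewise. EV 1 is replicate 1 of EV. EV and HV were the left and right legs of the same 5 animals, and ES and HS those of 5 others, so both legs of an animal saw the same injected drug. The vectors' promoter, the dose of Scriptaid and the time from its injection to collection are not stated in the labels. The titles of the ES samples name vehicle, whereas their treatment entries and animal identifiers name Scriptaid; the latter were followed. All values below are log2 intensities minus the array's 75th percentile, called levels, and a change is a difference of such levels.

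Histones package DNA into nucleosomes, and deacetylases remove acetyl groups from their tails. Replication-dependent histone genes lie in clusters and are transcribed in S phase to supply new chromatin, and their mRNAs end in a conserved stem-loop in place of a poly(A) tail. Variant histones such as H3.3 and H2A.Z come from single polyadenylated genes that are transcribed outside S phase, and H1.0, encoded by H1f0, accumulates in non-dividing cells and is a classical responder to deacetylase inhibitors in cultured cells. Adult muscle fibres do not divide. The labelling kit primes cDNA with oligo-dT, so an mRNA without a tail is labelled only where some of its transcripts are polyadenylated.

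Because histone paralogues are nearly identical, probes for different genes can report the same transcripts. The 60-base probes of 10 tested histone genes share a run of at least 20 bases with another member's probe. They are shown because the values of these genes may not be separate evidence. Capitals mark the longest run shared with a partner. The H4 probes were:
Hist1h4d: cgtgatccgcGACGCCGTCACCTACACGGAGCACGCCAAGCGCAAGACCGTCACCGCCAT
Hist1h4f: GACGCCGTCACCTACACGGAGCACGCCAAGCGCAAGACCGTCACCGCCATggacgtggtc
Hist2h4: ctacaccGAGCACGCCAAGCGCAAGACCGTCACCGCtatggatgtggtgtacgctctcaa
The H2B probes were:
Hist1h2bk: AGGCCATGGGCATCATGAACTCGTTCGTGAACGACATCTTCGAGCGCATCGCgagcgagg
Hist1h2bm: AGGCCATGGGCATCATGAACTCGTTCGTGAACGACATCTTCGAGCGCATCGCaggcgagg
Hist3h2bb-ps: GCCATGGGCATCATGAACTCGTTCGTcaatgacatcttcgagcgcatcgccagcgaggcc
The H2A probes, with that of the variant H2afj among them, were:
H2afj: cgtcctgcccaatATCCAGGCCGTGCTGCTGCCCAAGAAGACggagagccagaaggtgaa
Hist1h2aa: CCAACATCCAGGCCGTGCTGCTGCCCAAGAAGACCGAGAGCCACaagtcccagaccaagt
Hist1h2af: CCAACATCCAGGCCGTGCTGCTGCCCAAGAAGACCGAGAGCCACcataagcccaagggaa
Hist1h2ao: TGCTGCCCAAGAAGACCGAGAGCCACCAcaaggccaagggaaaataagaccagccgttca
The run common to Hist1h2bk and Hist1h2bm is 52 bases long, that of Hist1h4d and Hist1h4f 50 bases, and that of Hist1h2aa and Hist1h2af 44 bases. Over the arrays that measured both, the difference between the levels of Hist1h2bm and Hist3h2bb-ps had an SD of 0.0726, against SDs of 0.204 and 0.202 for either gene alone (n = 17 arrays). The corresponding SD was 0.115 for Hist1h2bk and Hist1h2bm (n = 15) and 0.149 for Hist1h4d and Hist1h4f (n = 19). In these pairs the difference varied less from array to array than either gene did. That held for 9 of the 11 pairs with a shared run. In the other 2, Hist1h2ao with Hist1h2aa and with Hist1h2af, the SDs of the difference were 0.472 and 0.589, above those of the partners, 0.278 and 0.369. Pairs without a shared run were not examined in this way, so the part of the shared sequence in these SDs was not tested.

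The core of a histone stem-loop, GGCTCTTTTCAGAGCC (arms of 6 bases around a loop of 4), was read from the probe of Hist1h3a. Its presence in that probe was thus given, and it was whole in only that 1 of 41174 probes of the array. The first arm with the loop, GGCTCTTTTCA, also ended the probe of Hist1h2ab, and these were the 2 probes that held it. Stem-loops with other letters were not searched for, so other probes may reach one. They are shown because they read the very end of a tail-less mRNA. In capitals is the stem-loop part, 5′ to 3′:
Hist1h3a: caaaGGCTCTTTTCAGAGCC
Hist1h2ab: caaaGGCTCTTTTCA
The Hist1h3a probe was above background on 0 of 20 arrays, whereas the Hist1h2ab probe was above background on every array with a value. The poly(A) signal AATAAA was present in 2 of 36 replication-dependent probes (Hist1h2bp and Hist2h2bb, neither tested) and in 4.78% of all probes.

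Of the 52 histone genes, 49 had a probe in the interior of the array, and 37 of these passed the filter of being well above background on at least 5 arrays, among 14655 genes that did. The 3 with a probe only at the array's edge were H2afx, Hist1h2ak and Hist2h3c1. The 37 comprised 28 replication-dependent and 9 variant genes, and 35 of them were above background on every array with a value. Hist1h1a was above background on 19 of 20 arrays and Hist1h2be on 5 of 20. The 12 that did not pass were above background on 0 to 4 arrays. They included the variant genes H1fnt, H1foo, H2afb1 and H2afy2. The other 8 were the replication-dependent genes Hist1h1t, Hist1h2ac, Hist1h2ae, Hist1h2al, Hist1h2bp, Hist1h2bq, Hist1h3a and Hist2h2bb. H1fnt and Hist1h1t encode linker histones of sperm cells and H1foo that of the oocyte, while Hist1h2aa and Hist1h2ba, whose products are also known from testis, were above background here on all arrays with a value. The probe of Hist1h2aa is among those that share sequence.

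Over the non-control spots the 75th percentile of intensity ranged from 248 to 608 between arrays, and 51.7% to 61.3% of spots were above background. Of 12 fast muscle markers, 10 had an interior probe, and each of these was above background on at least 5 arrays. The probes of the vector genes gave overlapping levels: Hdac4 had medians of 0.94 in EV, 1.24 in HV, 1.01 in ES and 1.22 in HS, and Hdac5 of 3.35, 3.19, 3.53 and 3.38. Where these probes lie relative to the vectors' inserts is not given in the labels, so they do not check the labels. Arrays EV 1 and HS 2 stood apart from the other 18: in a list of 13 mitosis genes the median difference from each gene's own median was 2.29 and 3.22 there, against -0.88 to 0.58 elsewhere. For 3 red blood cell markers it was 2.28 and 2.76 against -1.59 to 0.59, and for 6 neutrophil precursor genes 6.04 and 7.43 against -1.68 to 0.82. Several histone results that rest on these 2 arrays are given with and without them. Changes of the other gene lists are given with all arrays only. In whole muscle, fewer cells of a type and less RNA per cell cannot be told apart.

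No histone gene passed the test in any of 7 comparisons: the vector in vehicle animals, the vector in Scriptaid animals, Scriptaid in empty-vector legs, Scriptaid in dnHDAC4/5 legs, each averaged over the other factor, and their interaction. The test was limma's moderated test with Benjamini-Hochberg adjustment over all 14655 genes, called at an adjusted p below 0.05. In that order it called 0%, 0.0205%, 0%, 0.00682%, 0.232%, 0% and 0% of all genes, which is 0, 3, 0, 1, 34, 0 and 0 genes. An unadjusted p below 0.05 was reached by 4, 7, 1, 6, 3, 1 and 3 of the 37 histone genes, whereas the shares of all genes were 4.85%, 8.92%, 4.07%, 7.67%, 10.6%, 5.32% and 2.16%. The smallest adjusted p of a histone gene was 0.173, for Hist1h2be under the vector averaged over both injections. This fit does not use the pairing of legs within an animal. With the animal as a random block, Hist1h2be (limma adjusted p = 0.0415) and Hist2h2aa1 (0.0461) passed in that comparison, with 504 genes in all. Both legs of an animal lie on the same slide, so this block does not separate the animal from the slide.

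The intervals bound what could have been missed. The 95% interval of the change lay within 2-fold in either direction for 34 of 37 histone genes under Scriptaid averaged over both legs (at most 5 against 5 animals). An animal entered this average only where both of its legs had a value. All 20 arrays had one for 15 of 28 replication-dependent and 5 of 9 variant genes. For the vector averaged over both injections the interval lay within 2-fold for 33 genes. It did so for 30, 31, 30 and 31 genes in the 4 single comparisons and for 23 in the interaction. Over all genes the shares were 87.9% for Scriptaid and 90.1% for the vector as averages, 79.6% to 81.2% for the single comparisons and 66.5% for the interaction. For these histone genes a change of more than 2-fold lay outside the interval.

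**Figure D1:**
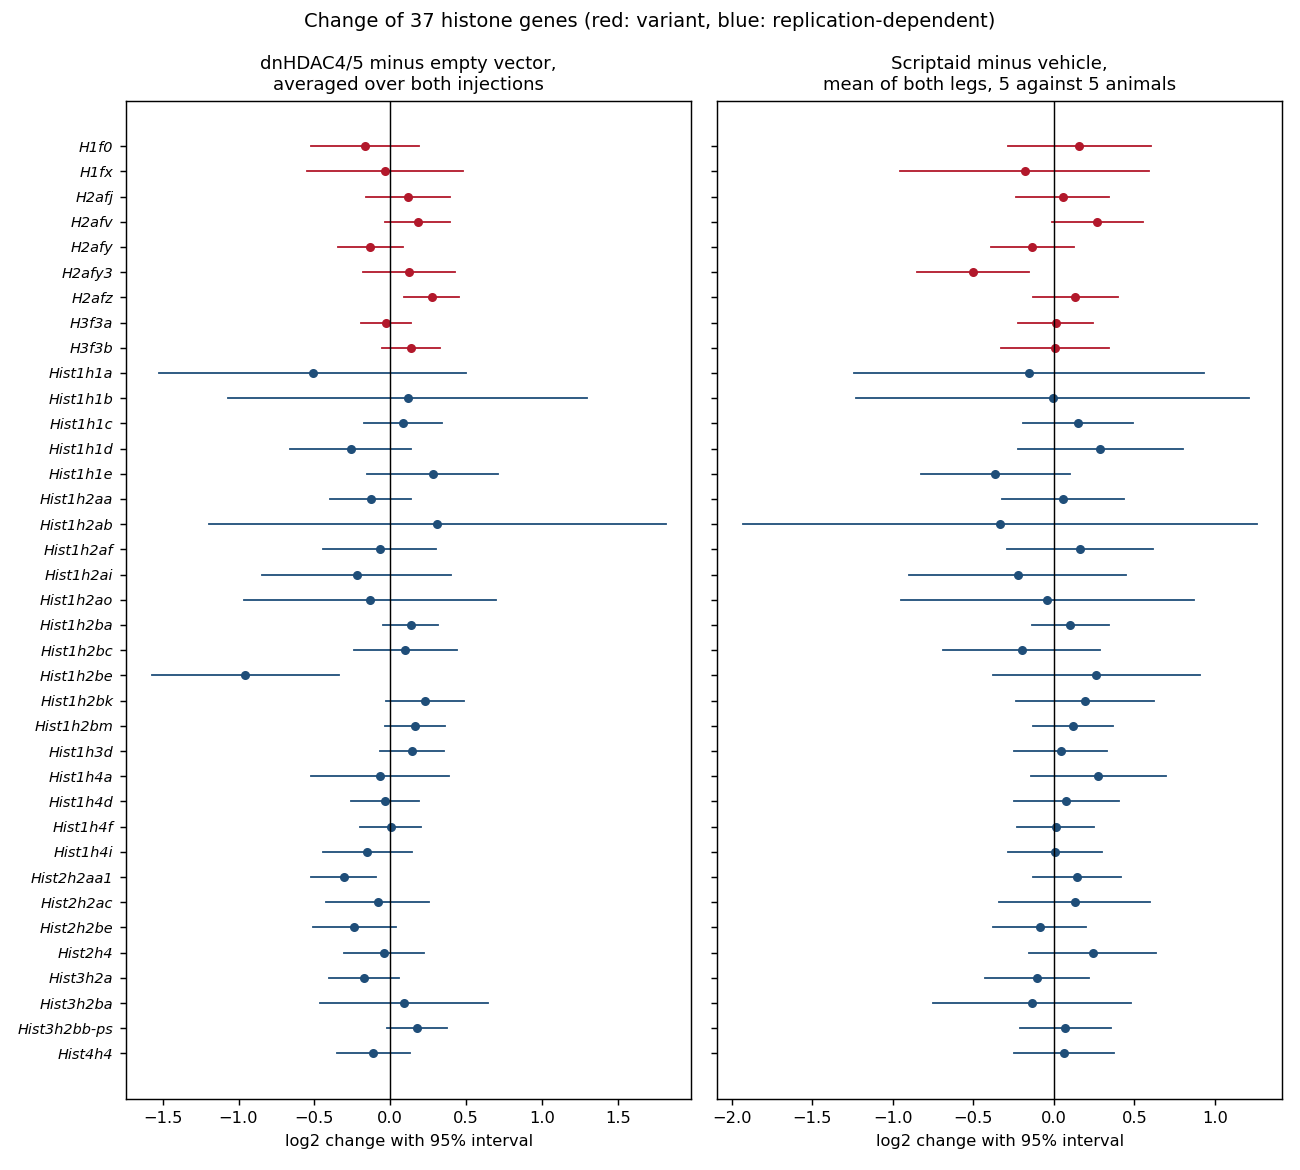
Each dot is the log2 change of 1 of 37 histone genes and each line its 95% interval (limma). The left panel shows dnHDAC4/5 minus empty vector over both injections. The right panel shows Scriptaid minus vehicle on the mean of both legs of at most 5 against 5 animals, those with both legs measured. Changes range from -0.95 (Hist1h2be) to 0.31 on the left and from -0.50 (H2afy3) to 0.29 on the right, and no gene passed the adjusted test.

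Linker histones bind the DNA between nucleosomes. H1f0 had levels of -0.81, -1.21, -1.53, -0.84 and -1.09 in EV and of -0.82, -0.90, -1.18, -1.11 and -0.82 in ES. In the dnHDAC4/5 legs it had -1.05, -1.20, -2.46, -0.80 and -0.94 in HV and -0.86, -1.17, -0.92, -1.10 and -1.47 in HS. The 4 groups overlapped, and the lowest value, of HV 3, stood 1 log2 unit or more below all others of its group. Under Scriptaid averaged over both legs the change of H1f0 was 0.16 ± 0.20 (SE, n = 5 against 5 animals; limma adjusted p = 0.953), with a 95% interval of -0.29 to 0.60. The vector averaged over both injections gave -0.17 ± 0.17 (SE; limma adjusted p = 0.808). The interval for Scriptaid included 0 and lay within 2-fold in either direction. Both changes rest on HV 3: without it, which takes its animal out of the mean over legs, they were -0.04 and -0.02.

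H1fx, which encodes the linker variant H1X, varied with the slide rather than with the groups. Each of the 5 slides held 1 array of every group, and the levels were 4.90 to 5.23 on slide 2 and 4.67 to 5.10 on slide 4. On slides 1, 3 and 5 they were 3.70 to 4.45, 3.98 to 4.47 and 3.91 to 4.23. No array of slide 2 or 4 overlapped with one of the other slides, whatever its group. The change under Scriptaid in dnHDAC4/5 legs was -0.32 ± 0.32 (SE, n = 5 and 5; limma adjusted p = 0.86), lower in all 5 slide-matched pairs, and with the slide as a block -0.32 ± 0.13 (limma adjusted p = 0.365). Without HS 2 the change was -0.52, but this keeps HV 2 of slide 2, where levels were high, without its HS partner.

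Of the cluster H1 genes, 5 were tested, and their smallest adjusted p over all comparisons was 0.632 (limma). Hist1h1d, encoding H1.3, had the smallest p of these between HS and HV, with levels of -0.47, -1.20, -1.15, -0.13 and -0.80 against -2.05, -1.16, -0.73, -0.91 and -1.85. The change was 0.59 ± 0.27 (SE, n = 5 and 5; limma adjusted p = 0.632), with overlapping groups and HS higher in 3 of 5 pairs. A second, dimmer probe of Hist1h1d, with a mean level of -3.92, gave 0.19 ± 0.44 (SE; limma unadjusted p = 0.667). Hist1h1e, encoding H1.4, had -0.10, 0.01, -0.15, -0.05 and 0.16 in ES against 1.098, -0.16, 0.87, 0.02 and 0.41 in EV. The EV values were spread widely and enclosed those of ES, with a change of -0.48 ± 0.29 (SE; limma adjusted p = 1), or -0.31 without EV 1. Without EV 1 and HS 2 the change of Hist1h1e under Scriptaid in dnHDAC4/5 legs was -0.57 (limma adjusted p = 0.199), against -0.25 with them (limma adjusted p = 0.891). Hist1h1c, encoding H1.2, had changes of 0.08 to 0.12 in the 4 single comparisons, with the spots of HS 3 and HS 4 left out. Without HS 2 its change under Scriptaid in dnHDAC4/5 legs was 0.23, with only HS 1 and HS 5 remaining in HS.

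The H2A.Z isoforms, which replace H2A at regulatory nucleosomes, are encoded by H2afz and H2afv. H2afz had 5.16, 5.02, 5.18, 5.21 and 5.13 in HV against 4.83, 4.82, 5.02 and 4.31 in EV, where the spot of EV 5 was left out. All HV values lay above all EV values, narrowly so between HV 2 and EV 3. In the Scriptaid animals HS had 5.04, 5.07, 5.30 and 5.17 and ES 4.95, 4.90, 5.09, 5.05 and 4.98, which overlapped. The vector's change was 0.40 ± 0.12 in vehicle animals (SE, n = 5 and 4; limma adjusted p = 0.757), higher in 4 of 4 animals. Averaged over both injections it was 0.27 ± 0.087 (SE; limma adjusted p = 0.199). A second, dimmer probe of H2afz, with a mean level of -4.32, gave -0.13 ± 0.21 (SE; limma unadjusted p = 0.551) for the same average, so the probes differed in sign.

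H2afv had 5.13, 4.71, 5.33 and 5.22 in HS, with HS 5 left out, against 4.86, 4.48, 4.39, 4.80 and 4.71 in HV. Of the HS values, 3 lay above every HV value, and HS 2 lay among them. Scriptaid in dnHDAC4/5 legs gave 0.45 ± 0.15 (SE, n = 4 and 5; limma adjusted p = 0.428), higher in 4 of 4 pairs, against 0.14 ± 0.14 in empty-vector legs. The test of that difference, the interaction, gave 0.31 ± 0.20 (SE; limma adjusted p = 1). Without EV 1 and HS 2 the change in dnHDAC4/5 legs had the smallest adjusted p of any histone gene, 0.112 (limma), and did not pass.

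H2afj, encoding the replication-independent H2A.J, had 5.78, 6.31, 5.49, 5.25 and 5.69 in HS against 5.06, 4.99, 5.38, 5.14 and 5.67 in ES. HS was higher in 5 of 5 animals, by 0.46 ± 0.19 (SE, n = 5 and 5; limma adjusted p = 0.463), while the groups overlapped. In vehicle animals the vector's change was -0.22 ± 0.19, and the interaction was 0.68 ± 0.26 (SE; limma adjusted p = 1). EV 1 and HS 2 held the highest H2afj levels of all arrays, 6.06 and 6.31, and without them the changes were 0.30 in Scriptaid and -0.09 in vehicle animals and the interaction was 0.40 ± 0.21. The other H2afj probe, with a mean level of -1.72, gave 0.08 for the vector in Scriptaid animals.

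MacroH2A, a long H2A variant associated with silent chromatin, was represented by H2afy and H2afy3. H2afy, the macroH2A1 gene, had 1.27, 1.55, 1.67, 2.01 and 1.41 in HS against 1.74, 1.85, 1.76, 2.11 and 2.00 in ES. It was lower in HS in 5 of 5 animals, although the groups overlapped, by -0.31 ± 0.14 (SE; limma adjusted p = 0.541). In vehicle animals the vector's change was 0.05 ± 0.14.

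H2afy3, listed in the reference as a transcribed pseudogene of macroH2A, had the smallest p of any histone gene under Scriptaid averaged over both legs. Its levels were -2.0, -1.89, -1.91, -1.70 and -1.92 in ES against -0.75, -1.08, -1.52, -1.71 and -1.51 in EV. In the dnHDAC4/5 legs they were -1.86, -0.996, -1.73, -1.81 and -2.08 in HS against -1.37, -0.92, -0.97, -1.69 and -1.37 in HV. ES and EV overlapped only through EV 4 and ES 4, and all HS values were lower than those of the HV array of the same slide. The average over legs was -0.50 ± 0.16 (SE, n = 5 against 5 animals; limma unadjusted p = 0.00899, adjusted p = 0.851). The change was -0.57 ± 0.20 in empty-vector legs and -0.43 ± 0.20 in dnHDAC4/5 legs, and these comparisons use different legs of the same animals. Without EV 1 and HS 2 the change in empty-vector legs was -0.43. Over 32 alternatives that in dnHDAC4/5 legs ran from -0.61 to -0.20.

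**Figure D2:**
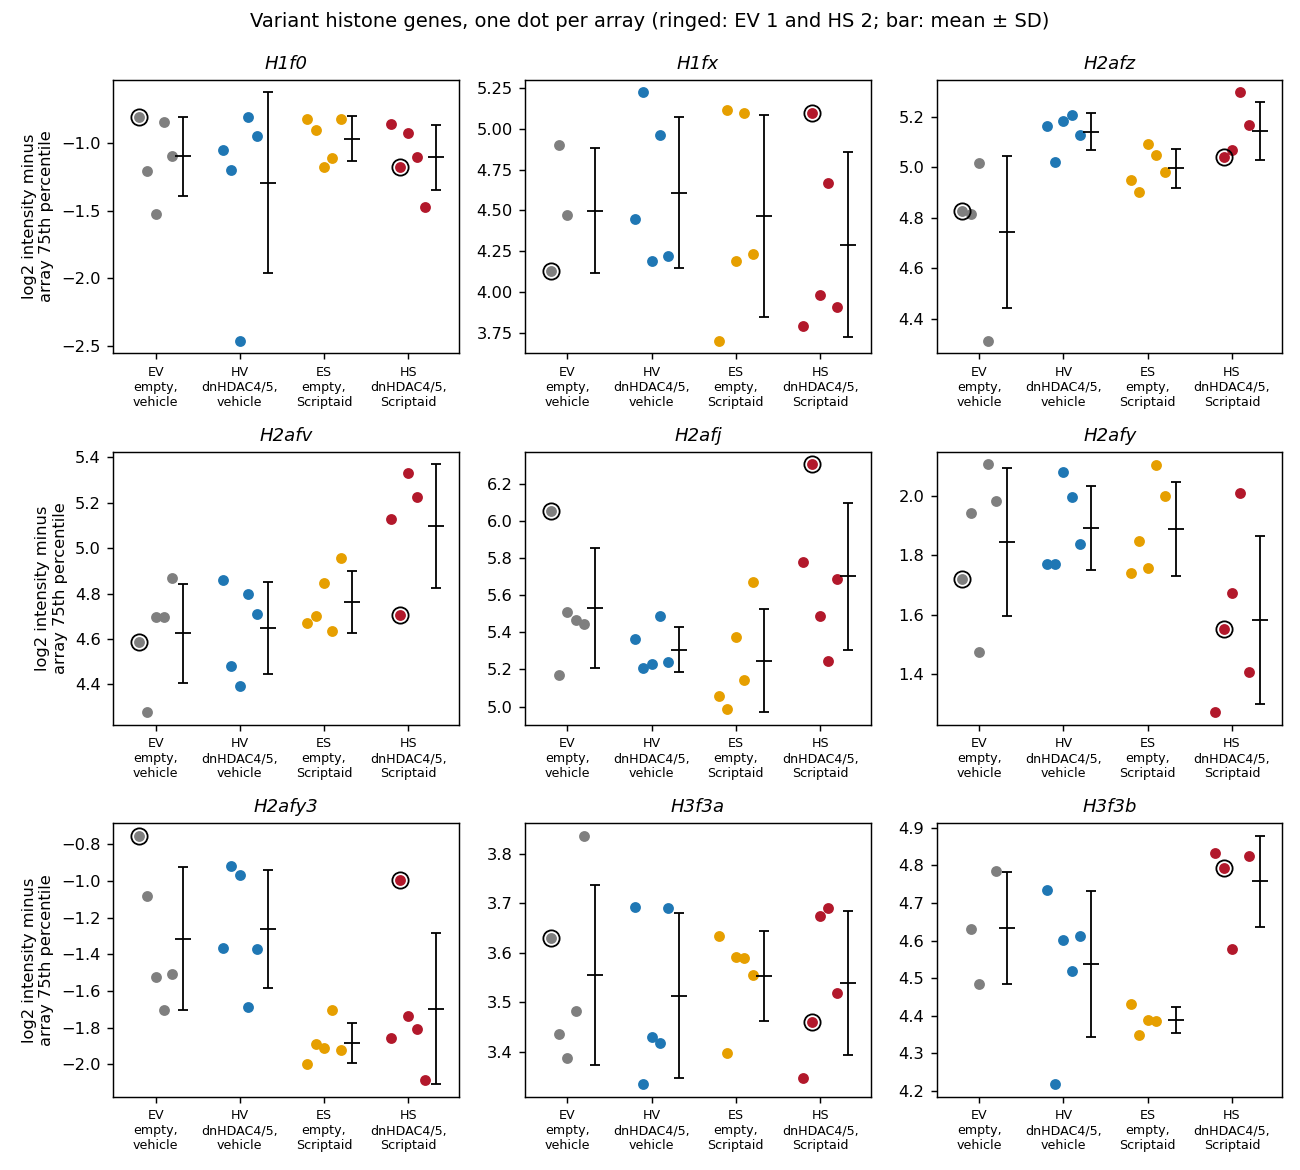
Levels (log2 intensity minus the array's 75th percentile) of the 9 tested variant histone genes, with 1 dot per array in the groups EV, HV, ES and HS, EV 1 and HS 2 ringed, and bars for the mean ± SD. H2afy3 sits lower in ES (-2.0 to -1.70) than in most EV arrays (-1.71 to -0.75), H3f3a is level across the groups, and H1fx shows a wide spread within each.

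H3.3, the H3 variant deposited outside replication, is encoded by both H3f3a and H3f3b. H3f3a ranged from 3.33 to 3.84 over all 20 arrays, and its changes were 0.01 ± 0.11 under Scriptaid averaged over both legs and -0.03 ± 0.078 under the vector averaged over both injections (SE; limma adjusted p = 0.993 and 0.944). Its level was 3.63, 3.44, 3.39, 3.48 and 3.84 in EV and 3.35, 3.46, 3.68, 3.69 and 3.52 in HS, with HV and ES inside that range apart from the lowest value, 3.33, of HV 2. Both intervals lay within -0.22 to 0.24, the narrowest bound on a change that the variant genes gave for Scriptaid.

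H3f3b had 4.83, 4.79, 4.58 and 4.83 in HS (HS 4 left out) against 4.43, 4.35, 4.39 and 4.39 in ES (ES 5 left out). The groups did not overlap, and the change was 0.37 ± 0.12 (SE, n = 4 and 4; limma adjusted p = 0.354). The EV values, 4.63, 4.49 and 4.78, also lay above those of ES without overlap (change -0.24 ± 0.13; limma adjusted p = 1), while HV had 4.73, 4.22, 4.60, 4.52 and 4.61. ES was thus the lowest group against both EV and HS, and the comparisons share the ES arrays. A second bright probe, with a mean level of 3.84, gave 0.15 ± 0.13 for the vector in Scriptaid animals (SE; limma unadjusted p = 0.266).

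Groups that did not overlap were found for 2 of 37 histone genes under the vector in vehicle animals (H2afz and Hist2h4; 0.648% of all genes) and 2 in Scriptaid animals (H3f3b and Hist1h2bk; 2.4%). There was 1 under Scriptaid in empty-vector legs (H3f3b; 1.11%) and 1 in dnHDAC4/5 legs (Hist2h4; 1.15%). In each of these pairs at least 1 group had fewer than 5 values, which makes an overlap less likely.

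Core histones H2A, H2B, H3 and H4 form the nucleosome. Of the 28 replication-dependent genes tested, 8 H2A, 8 H2B, 6 H4, 5 H1 and 1 H3 gene were present. Their median change was -0.23 under the vector in vehicle animals, where 8 of 28 were above 0, against 49.9% of all genes. It was 0.09 in Scriptaid animals (20 of 28 above 0, against 55.7%), -0.08 under Scriptaid in empty-vector legs (6 of 28, against 53.9%) and 0.18 in dnHDAC4/5 legs (22 of 28, against 58.3%). The median over all genes was 0.05 or less in size in each of these comparisons. For the vector averaged over both injections it was -0.05 (12 of 28, against 54.1%), and for Scriptaid averaged over both legs 0.06 (18 of 28, against 56.9%). The sign thus differed between legs and between injections, and the interaction was above 0 for 25 of 28 genes (54.8% of all genes), with a median of 0.26. The 9 variant genes had medians of 0.02, 0.15, -0.001 and 0.03 in the 4 single comparisons, in the same order, and 0.06 for the interaction. With a normexp background correction in place of the scanner's, the replication-dependent median turned to 0.07 under the vector in vehicle animals and to 0.25 under Scriptaid in empty-vector legs, so neither direction held under both corrections.

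The replication-dependent medians changed when EV 1 and HS 2 were left out. Only for the vector in vehicle animals was this by more than the SD of the median between replicates, 0.156. There it became -0.06 with 10 of 28 above 0 (47.6% of all genes), and for the vector in Scriptaid animals -0.0029 with 14 of 28 (56.9%). Under Scriptaid it became -0.05 with 9 of 28 (49.3%) in empty-vector legs and 0.12 with 19 of 28 (59.4%) in dnHDAC4/5 legs. The interaction median became 0.17 with 19 of 28 (59.3%). The genes share probe sequence and arrays, so the counts are not independent, and no replication-dependent gene passed the test in either case.

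Among H2A genes, 8 of 8 were below 0 under the vector in vehicle animals (-0.72 to -0.22), or 4 of 8 with the normexp correction. Without EV 1 and HS 2, 7 of 8 were below 0, from -0.36 (Hist2h2aa1) to -0.04 (Hist1h2af), and Hist1h2ab was at 0.49. In Scriptaid animals 5 of 8 were above 0 with all arrays and 1 of 8 without these 2. Hist2h2aa1 had 3.72, 3.54, 3.74, 3.77 and 3.81 in HV against 3.90, 3.77, 4.32, 4.13 and 4.07 in EV. In Scriptaid animals it had 4.202, 3.65, 4.14, 3.44 and 3.94 in HS against 4.196, 4.21, 4.05, 3.97 and 4.41 in ES. HV overlapped EV only through EV 2, which was 3.77. The vector averaged over both injections gave -0.31 ± 0.10 (SE; limma adjusted p = 0.215). With the animal as a random block, which pairs the legs of 1 animal, the same change had an adjusted p of 0.0461 (limma) and passed, as did 504 genes in all against 34.

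Hist1h2be was the only histone gene tested whose levels were mostly at background. Its levels were -3.08, -4.18, -3.84, -4.14 and -5.15 in EV and -6.37, -5.41, -4.14, -4.53 and -6.01 in HV. In Scriptaid animals they were -3.92, -4.01, -5.05, -3.23 and -4.15 in ES and -4.34, -4.73, -4.99, -4.68 and -5.10 in HS. It was above background on 2 EV, 1 HV, 2 ES and 0 HS arrays, and the groups overlapped. The vector averaged over both injections gave a fitted change of -0.95 ± 0.29 (SE; limma adjusted p = 0.173), with an adjusted p of 0.0415 with the animal as a random block (limma). Both rest on values of which most were not well above background in every group, so they give no size of a change. With the lowest signal above background as a floor, the HV mean was -5.07 in place of -5.29 and the other means were as measured, and HS gives only a bound.

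Of the H2B genes sharing the probe sequence shown above, Hist1h2bk had 5.04, 4.59 and 5.13 in HS (HS 3 and HS 5 left out) against 4.34, 4.47, 4.52, 4.56 and 4.55 in ES. The groups did not overlap, and the change was 0.43 ± 0.17 (SE, n = 3 and 5; limma adjusted p = 0.463). The partner Hist3h2bb-ps, a pseudogene by its name, had a change of 0.30 ± 0.13 (limma adjusted p = 0.505). The other probe of Hist1h2bk gave 0.26 ± 0.21 (SE; limma unadjusted p = 0.236). Hist1h3d, the H3 gene tested, had 3.54, 3.42, 3.32, 3.15 and 3.57 in HS against 3.30, 3.02, 2.65, 3.08 and 3.32 in ES, higher in 5 of 5 animals. Its change was 0.33 ± 0.14 (SE; limma adjusted p = 0.494), with overlapping groups.

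Of the H4 genes, Hist2h4 had 3.68, 3.19, 3.78, 3.69 and 3.57 in HV against 4.16, 3.92 and 3.85 in EV and 4.30, 4.25 and 3.80 in HS. HV lay below both without overlap, by -0.39 ± 0.16 against EV (SE, n = 5 and 3; limma adjusted p = 0.948), while HS was 0.53 ± 0.16 higher than HV (n = 3 and 5; limma adjusted p = 0.417). Both comparisons use the same HV arrays. The ES arrays with a value had 3.88, 3.79 and 3.74. Hist2h4 lacked 6 of 20 spots, the most of any histone gene tested, and the interaction was 0.70 ± 0.24 (SE; limma adjusted p = 1). Hist1h4d and Hist1h4f, whose probes share part of its sequence, did not pass in any comparison either. All 6 H4 genes were above 0 under Scriptaid averaged over both legs, by 0.01 to 0.28, against 56.9% of all genes, but only 4 of 6 with quantile normalization. Among them, Hist1h4d, Hist1h4f and Hist2h4 share probe sequence, so they are not separate counts. Spots left out for Hist1h4a, Hist1h4d and Hist2h4 also took animals out of that average.

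**Figure D3:**
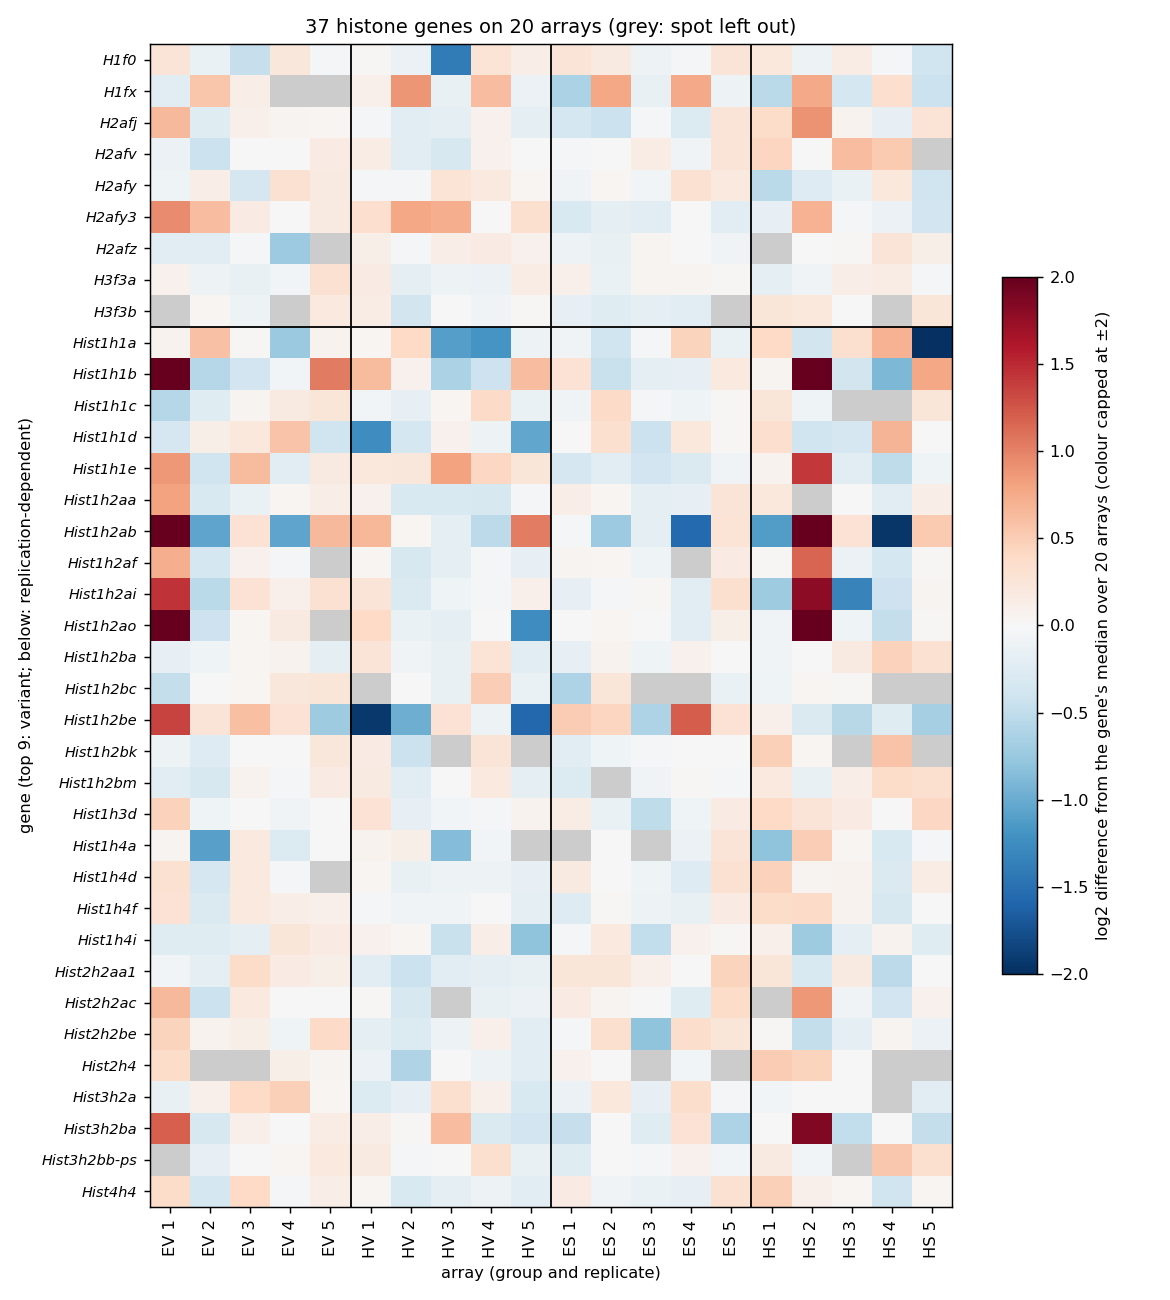
Difference of each of 37 histone genes (vertical axis) from its own median, in log2 units with the colour capped at ±2, on each of 20 arrays (horizontal axis, grouped as EV, HV, ES and HS). Grey cells are spots left out. EV 1 and HS 2 stand out in Hist1h1b, Hist1h2ab, Hist1h2ai and Hist1h2ao, and no block of genes separates the groups.

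The highest levels of 4 histone genes were those of 2 arrays of different groups. Hist1h2ab, an H2A gene, had 2.57 in EV 1 and 3.53 in HS 2 against -3.26 to -0.29 on the other 18 arrays. Hist1h1b, which encodes the linker histone H1.5, had -0.18 and 0.85 against -4.39 to -2.46. Hist1h2ao had 5.59 and 6.29 against 2.21 to 3.86, and Hist1h2ai 1.56 and 1.91 against -1.21 to 0.44. In each case both arrays lay above the other values by more than 1 log2 unit. No other tested histone gene had such a gap.

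EV 1 and HS 2 were both the highest arrays for 8 of the 26 replication-dependent genes measured on both (30.8%), for 1 of 8 variant genes (12.5%, H2afj) and for 4.36% of all genes. A gap above 1 log2 unit occurred for 4 of 26 (15.4%) and for 0.589% of all genes. Other genes of S phase were high there as well: both arrays were the highest for 14 of 24 replication genes. Outside S phase, both were the highest for 9 of 13 mitosis genes, 3 of 3 red blood cell markers and 5 of 5 neutrophil precursor genes measured on both. The same held for 5 of 5 cartilage genes, 5 of 7 bone genes and 3 of 4 platelet precursor genes. It held for 4 of 4 red cell precursor genes, of which 3 (Hbb-b1, Alas2 and Slc4a1) are the red blood cell markers already counted. It also held for 4 of 7 Schwann cell markers, whose median difference was 2.01 and 1.01 against -0.87 to 0.63. The neutrophil, red cell and platelet precursor, bone and cartilage lists were written after these 2 arrays had been seen. It held for 0 of 8 macrophage and 0 of 6 endothelial genes and for 2 of 5 lymphocyte markers, whose median difference was 0.78 and 1.52 against -0.52 to 0.40. Fast muscle markers were at -0.22 and 0.09, within the -0.56 to 0.68 of the others. Slow muscle markers were at 3.59 and 1.81 against -0.73 to 3.18, and adipocyte markers at 2.71 and 3.45 against -2.28 to 3.17. Both arrays were the highest for 0 of 4 slow muscle and 0 of 8 adipocyte markers measured on both. The part of any of these cells in the histone values was not tested.

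The effect of these arrays on single changes was large next to the error. The change of Hist1h1b under the vector in vehicle animals was -0.61 ± 0.80 with all arrays and 0.05 ± 0.37 without EV 1 and HS 2. Under Scriptaid in dnHDAC4/5 legs it gave 0.72 ± 0.80 with them and -0.17 ± 0.37 without (SE; limma adjusted p = 0.887 and 0.888). The changes of Hist1h2ab in the same comparisons were -0.34 and 0.32 with them and 0.49 and -0.76 without, none of which passed.

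The promoters of these genes are printed because these genes were high on the same arrays and all 4 windows hold CCAAT. The windows are RefSeq sequence of assembly GRCm38.p6, 150 bases of the 300-base window around the start of each gene, in the gene's direction. Capitals mark CCAAT or its complement, TATAAA and the octamer ATTTGCAT or its complement. Hist1h2ab lies at chr13:23750938-23751087 on the plus strand and Hist1h1b at chr13:21780626-21780775 on the minus strand. Hist1h2ao is at chr13:21810217-21810366 and Hist1h2ai at chr13:21716262-21716411, both on the plus strand:
Hist1h2ab: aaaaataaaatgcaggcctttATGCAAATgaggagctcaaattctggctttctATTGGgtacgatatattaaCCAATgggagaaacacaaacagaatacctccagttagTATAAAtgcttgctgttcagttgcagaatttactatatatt
Hist1h1b: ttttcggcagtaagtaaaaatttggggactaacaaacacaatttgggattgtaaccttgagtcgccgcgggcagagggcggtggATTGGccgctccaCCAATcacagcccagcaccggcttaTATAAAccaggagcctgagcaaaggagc
Hist1h2ao: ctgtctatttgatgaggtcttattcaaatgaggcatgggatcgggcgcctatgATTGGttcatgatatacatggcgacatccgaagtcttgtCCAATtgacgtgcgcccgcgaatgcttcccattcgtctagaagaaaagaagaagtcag
Hist1h2ai: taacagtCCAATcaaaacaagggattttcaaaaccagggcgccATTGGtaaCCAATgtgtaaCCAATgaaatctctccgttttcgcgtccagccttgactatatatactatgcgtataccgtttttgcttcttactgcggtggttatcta
Chromosome 13 carries the largest histone cluster, and 26 of the 47 members matched to a current gene lie on it. A promoter was matched for 41 of 52 members. On either strand, CCAAT was in 27 of 29 replication-dependent promoters (93.1%) and 7 of 12 variant promoters (58.3%), against 37.9% of 27025 promoters of the same length. TATAAA was in 18 of 29 (62.1%) and 1 of 12, against 14.2%, and ATTTGCAT in 9 of 29 (31%) and 1 of 12, against 1.75%. All 9 cluster promoters with the octamer were of H2A or H2B genes, and H3f3b was the variant gene with it. These matches describe the letters in the windows only.

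The spread of levels over 20 arrays reached further for replication-dependent genes, with a SD of 0.187 to 1.63 and 3 of 28 above 1, than for variant genes, with 0.139 to 0.498. The 3 above 1 were Hist1h2ab and Hist1h1b, which stood out on EV 1 and HS 2, and Hist1h1a. The lowest levels of Hist1h1a were -6.20 in HS 5 and then -2.99 in HV 4. The spread without these arrays was not computed. The medians of the SD were nearer to each other, 0.292 and 0.265, against 0.321 over all genes, of which 4.61% were above 1.

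No factor listed as acting on histone mRNA or protein passed the test either. This held for 17 tested genes for histone 3′ ends and cluster transcription, 22 histone chaperones, 24 genes of DNA replication and 13 of mitosis in the 7 comparisons. Eri1, an exonuclease that degrades histone mRNA, was higher by 0.37 under the vector in Scriptaid animals, in 5 of 5 animals (limma adjusted p = 0.322). Ncbp2, a subunit of the cap-binding complex, was at 0.45 under Scriptaid in dnHDAC4/5 legs (limma adjusted p = 0.453), and Zfp473, a factor of histone 3′ end processing, at 0.49 under the vector in vehicle animals (limma adjusted p = 0.963). Chaf1a, the large subunit of the replication-coupled chaperone CAF-1, was at 0.63 under the vector in Scriptaid animals, and Ubn1, a subunit of the H3.3 chaperone HIRA complex, at 0.27 and Supt16h, a subunit of FACT, at 0.37 under Scriptaid in dnHDAC4/5 legs (limma adjusted p = 0.494, 0.589 and 0.65).

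Of the replication genes, Fen1, a flap endonuclease, and Pcna, the sliding clamp, were at 0.46 and 0.27 under the vector in Scriptaid animals, higher in 5 of 5 animals each (limma adjusted p = 0.361 and 0.426). Tyms, thymidylate synthase, was at -0.75 under Scriptaid in dnHDAC4/5 legs, lower in 5 of 5 pairs (limma adjusted p = 0.453). Of the 13 mitosis genes, 2 were above 0 under the vector in vehicle animals (median -0.58), 11 in Scriptaid animals (median 0.39) and 8 averaged over both (median 0.02), with EV 1 and HS 2 among the arrays. Aurka, a mitotic kinase, lay below 0 where most of the list lay above it in Scriptaid animals. It was lower under the vector in both injections, by -0.69 in vehicle animals (5 of 5 animals) and -0.89 in Scriptaid animals (4 of 5), and averaged over both by -0.79 (limma adjusted p = 0.0837). Tpx2, its activator, was at -0.50 and -0.87.

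The 3 genes at the array's edge were not tested with the others, since HS arrays differed from the rest there. On the side where they lie, the median difference of all detected spots between HS and HV was 0.09, and on the low rows of the array it was -0.60. With all spots kept, H2afx, encoding the DNA damage histone H2A.X, had 1.86, 2.23, 1.66, 1.63 and 1.07 in HS against 1.01, 0.69, 1.06, 0.66 and 1.18 in HV. Of the HS values, 4 lay above all HV values, and the change was 0.77 ± 0.17 (SE, n = 5 and 5; limma adjusted p = 0.03), among 202 genes called with the edges kept against 1 without. EV and ES had 0.86 to 1.33 and 0.95 to 1.26. The other 2 edge genes, Hist1h2ak and Hist2h3c1, had HS values of -1.26 to 2.78 and of -1.17 and 4.31 (HS 1 and HS 2, with 3 left out), the widest of their groups. Whether the position on the array has a part in the H2afx difference was not tested.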

How the data were processed

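RNA of 20 muscles was labelled with Cy3 from 100 ng each and hybridised to 1-colour Agilent arrays. Per the submitters' processing notes, images were read with Agilent Feature Extraction 9.5.1.1. Per the file headers, the deposited processed intensity of each spot is corrected for background. The authors' series matrix holds a ratio, which the deposited values show to be that intensity over 1 constant per array, and it served as an alternative only.

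Intensity was expressed as log2 and scaled by subtracting, for each array, the 75th percentile over its non-control spots. Spots that the software marked non-uniform or population outliers were dropped, and repeated spots were averaged. Spots in columns 1 to 77 and rows 11 to 522 were used, because the HS arrays differ at the edges. A probe was kept if well above background on at least 5 arrays with at least 3 values in every group, so that 21207 probes remained. Each gene was represented by its brightest probe on average (14655 genes). No probe's level was set against another probe's.

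Group means were fitted with limma 3.58.1 in R 4.3.3 on all 20 arrays. Scriptaid averaged over both legs was fitted on the leg means of up to 10 animals. An animal with a value missing in either leg was not used for that gene. The tests are two-sided, with Benjamini-Hochberg adjustment over all genes. The precision is limited by 5 arrays in each group. The fit was tested on simulated data with independent noise on every array. That test does not cover the pairing of legs or the slides. The animal identifiers in the labels pair the legs: residuals of the 2 legs of an animal correlated at 0.0217 to 0.428, above 0.1 for 9 of 10 animals. Replicate numbers coincide with the slide, and arrays of a slide correlated at 0.0811 to 0.314 on average. The 2 legs of an animal thus also share a slide, so neither their correlation nor the animal block separates the animal from the slide.

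Named were every tested variant gene, the 3 replication-dependent genes of smallest p in each comparison, genes whose groups do not overlap, and the 3 genes of smallest p of each accompanying list. Genes that stood out on EV 1 and HS 2, and those at the array's edge, were named after their values were seen. The histone genes, lists and tests were chosen with earlier results of these data known. Gene names are those of the files; 47 of 52 matched a current symbol in a RefSeq table of GRCm38.p6, which is the build of the promoters. The build of the probes is not given in the sources used here. Marker lists covered muscle, satellite, blood, endothelial, connective, fat and nerve cells, and bone, cartilage and blood precursor lists were added after seeing the data. The alternatives changed the background correction, normalization, filters, probe choice, blocks and arrays used.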

Additional observations from a re-analysis of the deposited data

Results flagged for a closer look

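Dixon's test was applied to 72 groups of named histone genes, of which chance marks about 1 in 20, and 5 were marked. Hist1h3d had its highest EV value in EV 1, at 3.61, with the next at 3.16. Hist3h2ba, an H2B gene, had -1.49 in HS 2, with the next HS value at -3.33. Both of these lie on the 2 arrays on which other S phase genes were high. Hist1h4a had 1.99 in HV 3, with the next at 2.81, and H1f0 had -2.46 in the same array, with the next at -1.20. H3f3b had 4.58 in HS 3, below the other 3 HS values, of which the lowest was 4.79.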

How the results depend on the processing

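Over 32 alternatives, no histone gene passed the test except with all spots kept (1 gene, H2afx, under Scriptaid in dnHDAC4/5 legs) and with the animal as a random block (2 genes, Hist1h2be and Hist2h2aa1, under the vector averaged over both injections). With the replicate block, which is the slide, no histone gene passed: the adjusted p for that average was 0.123 for Hist2h2aa1, 0.125 for Hist1h2be and 0.17 for H2afz (limma). Over all genes the same comparison called 132 with the replicate block, 504 with the animal block, 172 with all spots, 91 with quantile normalization, 69 with the strict filter, 5 with normexp, 11 without a filter, and 11 to 215 with 1 array left out, against 34. The vector in Scriptaid animals called 152 with the animal block, 195 with all spots and 0 to 7 otherwise. Scriptaid in dnHDAC4/5 legs called 18 with the replicate block, 202 with all spots, 28 without EV 1 and HS 2, and 31 without HS 2 alone. Scriptaid over both legs called 32 and the interaction 28 with all spots. The cause was not tested. With normexp the replication-dependent medians were 0.0738 (vector in vehicle animals), 0.25 (Scriptaid in empty-vector legs), 0.11 (vector over both), 0.27 (Scriptaid over both) and 0.11 (interaction). The variant medians were 0.24, 0.22, 0.16 (Scriptaid in dnHDAC4/5 legs), 0.16 (Scriptaid over both) and -0.14 (interaction). The share of all genes above 0 went from 55.7% to 74.4% for the vector in Scriptaid animals and their median to 0.10. The variant median was also -0.16, -0.22 and -0.13 without a filter (Scriptaid in empty-vector legs, dnHDAC4/5 legs and over both). That setting adds H1fnt, H1foo, H2afb1 and H2afy2, which did not pass the main filter, so its set of genes differs. The median of the 9 variant genes was -0.0655, 0.13 and 0.16 with marked spots kept (vector in Scriptaid animals, Scriptaid in each leg). It was -0.0149 and -0.14 with the mean of probes (vector in Scriptaid animals, Scriptaid in dnHDAC4/5 legs). With all spots kept, which adds H2afx, the variant median was 0.19 for the interaction. With 1 array left out the replication-dependent median ran from -0.30 to -0.0646 for the vector in vehicle animals, the latter without EV 1. The variant median ran from 0.0141 (without HS 2) to 0.17 for the vector in Scriptaid animals. Without both arrays, an alternative chosen after seeing the data, these were -0.0646 and 0.0141. Of 84 named changes, normexp turned the sign of 21, none of which had passed. Spots near background, such as those of Hist1h2be, limit what can be read.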
